A study of Homo sapiens with 12 samples.

Results

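The genes described here are 8 integrin subunits (ITGA2, ITGA3, ITGA5, ITGAV, ITGB1, ITGB5, ITGB6 and ITGB8) and FN1, the gene of fibronectin, in HaCaT cells, human skin keratinocytes that grow as an immortal line. They were found by symbol, and all 9 were present among the 16271 genes of the deposited count table and passed the filter on low counts. Total RNA was sequenced from 4 groups of 3 libraries: VDR knockout cells given 1,25(OH)2D3 for 8 h, VDR knockout cells without it, wild type cells given the hormone for 8 h, and wild type cells without it. VDR encodes the nuclear receptor of 1,25(OH)2D3, the active form of vitamin D. The sources used here give neither dose nor vehicle, nor where and how VDR was edited, nor how many knockout clones were taken, so the effect of the edit and that of a clone cannot be told apart. The labels place the replicates on 6-well plates and do not say whether they were separate cultures. A p-value here thus reflects library-to-library spread, which may be technical.

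Integrins are receptors of 1 alpha and 1 beta subunit that span the cell membrane and tie the matrix outside the cell to the actin or keratin filaments inside. In keratinocytes the pair of alpha2 and beta1 binds collagen, that of alpha3 and beta1 binds laminin-332, and that of alpha5 and beta1 binds fibronectin. The alpha v subunit pairs with several beta subunits. With beta5 it binds vitronectin, with beta6 it binds fibronectin and the latent form of TGF-beta, and with beta8 it binds latent TGF-beta. In intact epidermis alpha5 and beta6 are low, and both are known to rise in the keratinocytes that close a wound over a bed of fibronectin.

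Total counts per library were 11.49 to 15.99 M. Untreated wild type replicate 3 lay away from replicates 1 and 2 on the first principal component of log2 CPM (counts per 1000000 counted reads), at -32.5 against -54.3 and -55.7. VDR RNA was still counted in the knockout libraries, at 77.6 ± 4.07 CPM untreated and 82.8 ± 3.02 CPM with the hormone. Wild type libraries had 103.3 ± 3.81 CPM untreated and 71.0 ± 3.62 CPM with the hormone. VDR RNA was thus lower in the knockout untreated (log2 fold change -0.41 ± 0.07, SE; edgeR adjusted p = 5.03e-05) and higher with the hormone (0.22 ± 0.07, edgeR adjusted p = 0.00796). CYP24A1, the textbook target gene of the receptor, rose 34.9-fold with the hormone in wild type cells and did not pass in knockout cells (log2 fold change -0.47 ± 0.15, SE; edgeR adjusted p = 0.106). All 8 keratinocyte markers had a row in the table, with sums of 806 to 1020 CPM in knockout libraries and 2300 to 2990 CPM in wild type libraries. In bulk RNA, fewer cells of a type and less RNA per cell cannot be told apart.

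The promoters of FN1 and ITGB6 are shown because these members had the largest differences between the hormone responses of the genotypes, in opposite directions, as given further on. Both run from 250 bases before to 50 bases after the RefSeq start on GRCh38.p14, on the minus strand of chromosome 2, at chr2:215436019-215436318 for FN1 and chr2:160200223-160200522 for ITGB6. Capitals mark letters that match 1 of 4 motifs searched on both strands with overlaps allowed: the cyclic AMP element CRE (TGACGTCA), the AP-1 site (TGANTCA), the GC box (GGGCGG) and the DR3 element that VDR binds.
FN1: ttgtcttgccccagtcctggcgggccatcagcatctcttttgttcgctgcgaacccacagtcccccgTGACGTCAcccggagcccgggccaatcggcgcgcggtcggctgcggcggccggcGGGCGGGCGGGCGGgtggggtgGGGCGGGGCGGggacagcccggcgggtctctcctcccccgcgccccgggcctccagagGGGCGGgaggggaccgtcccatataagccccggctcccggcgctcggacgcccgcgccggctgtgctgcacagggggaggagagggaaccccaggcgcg
ITGB6: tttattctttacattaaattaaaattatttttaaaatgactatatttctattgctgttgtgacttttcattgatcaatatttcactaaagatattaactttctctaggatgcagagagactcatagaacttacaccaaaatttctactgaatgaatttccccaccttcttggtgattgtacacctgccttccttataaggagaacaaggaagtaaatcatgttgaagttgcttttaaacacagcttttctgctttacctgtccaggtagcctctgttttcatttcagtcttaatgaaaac
The FN1 promoter held 1 CRE at position -183, counted from the start, and 6 GC boxes, and 76.7% of its bases were G or C. The ITGB6 promoter matched none of the motifs and had 31.7% G or C. Of 34796 promoters of the same length, 1.84% held a CRE, 7.73% an AP-1 site, 44.9% a GC box and 0.253% a DR3 element. RefSeq promoters matched 8 members, ITGA3 being the one without an entry. Of these, 6 held a GC box, FN1 alone a CRE, ITGA5 alone an AP-1 site and 0 a DR3 element in the window searched. Only the first listed start of each gene was searched, although ITGAV and ITGB1 had 2 listed starts each and ITGB5 had 3. A match is a description of letters, and no match says only that they are not in this window.

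The levels of the subunits were first compared per kilobase of exon in untreated wild type cells, since a long RNA gives more reads. ITGB1, the common beta partner, was highest at 44.8 ± 5.07 CPM per kb (SD, n = 3). ITGA3 followed at 34.1 ± 0.656 and ITGA2 at 33.5 ± 2.66 CPM per kb, and these 2 overlapped between libraries. ITGB6 stood at 24.7 ± 3.57, ITGB5 at 13.9 ± 2.91 and ITGAV at 10.2 ± 1.69 CPM per kb, with overlap between ITGB5 and ITGAV. ITGB8 at 5.72 ± 0.189, FN1 at 4.21 ± 0.568 and ITGA5 at 2.81 ± 0.0575 CPM per kb were lowest and did not overlap. The fibronectin subunit ITGA5 was thus the scarcest. With the length of the longest coding transcript in place of the union of exons, an alternative added after the data were seen, the order was the same but the gaps were not. ITGA3 then averaged 68.4 CPM per kb, far above ITGA2 at 33.7 and overlapping ITGB1 at 71.1, and ITGB6 overlapped ITGB5. ITGB8, at 9.53 to 10.1 CPM per kb, then overlapped ITGAV, at 9.74 to 13.6, while ITGB5, at 15.9 to 24.5, no longer did. In untreated knockout cells ITGA2 at 24.1 ± 0.511 and ITGB1 at 23.5 ± 0.832 CPM per kb were highest and overlapped between libraries, although on the other length ITGB1 was above ITGA2, at 37.3 ± 1.32 and 24.2 ± 0.514 CPM per kb. ITGB6 came next at 15.8 ± 3.55 CPM per kb of exon union, above ITGA3 at 11.1 ± 1.45, but on the other length ITGA3 at 22.3 ± 2.91 was above ITGB6 at 15.8 ± 3.56 CPM per kb. ITGA5 was again lowest, at 1.35 ± 0.249 CPM per kb of exon union.

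**Figure D1:**
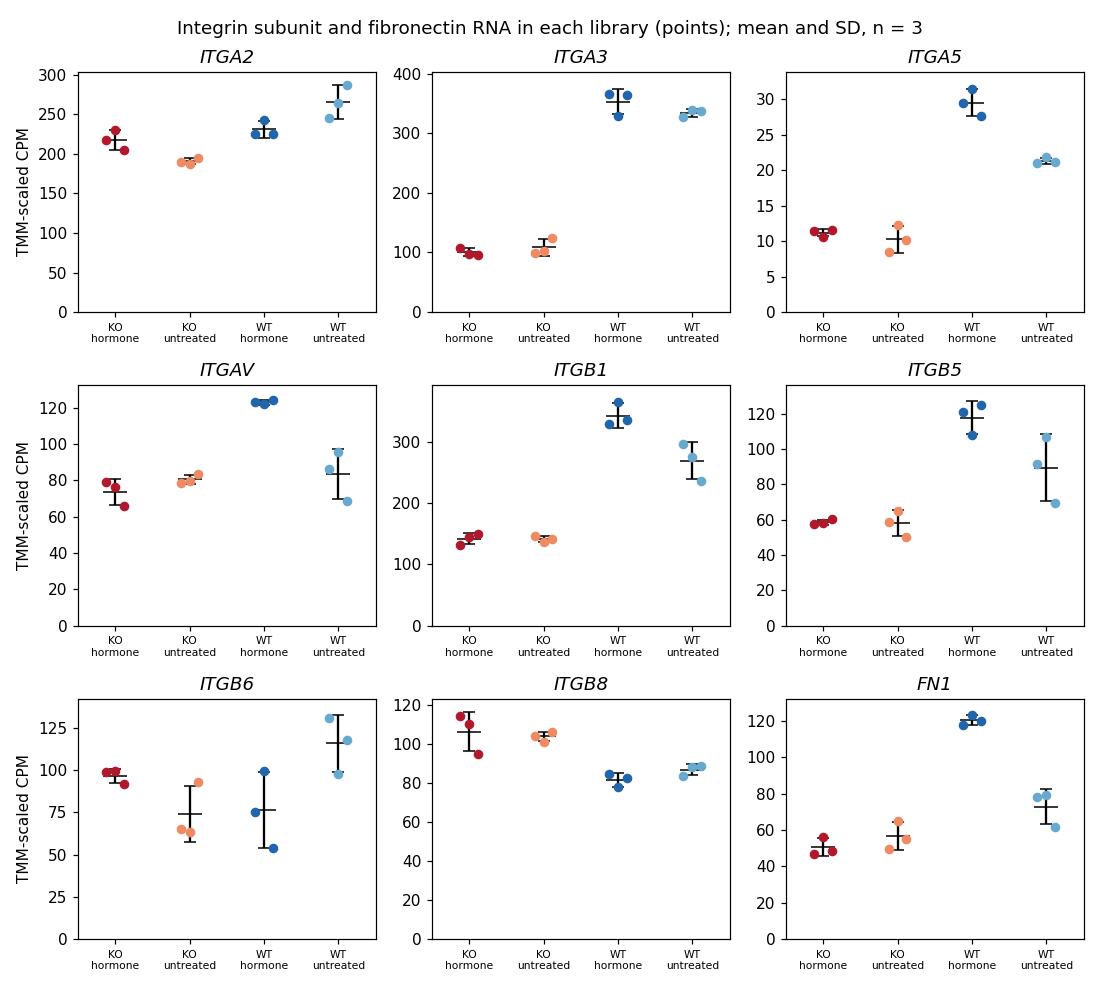
TMM-scaled CPM of each member (vertical axes, each from 0) in the 12 libraries (points), with the mean and SD of each group of 3; knockout (KO) and wild type (WT) cells, with the hormone or untreated. FN1, ITGAV, ITGA5 and ITGB1 are higher in all hormone-treated WT libraries than in any other library, ITGA3 is lower in every KO library than in any WT library, and ITGB8 is higher there.

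The first question was what the hormone did in cells with an intact receptor. FN1 and the subunits ITGAV, ITGA5, ITGB1 and ITGB5 rose, by 1.27- to 1.66-fold, and no member fell. The risen subunits include the alpha and the beta chain of the alpha5 beta1 fibronectin receptor and those of the alpha v beta5 receptor. The call of ITGB5 was lost without some single wild type libraries, as given below. ITGB6, whose pair with alpha v also binds fibronectin, did not rise (log2 fold change -0.60 ± 0.22, adjusted p = 0.0771, edgeR). So 5 of 9 members rose, against 11.5% of all 14676 genes tested that rose and 13.0% that fell (24.5% in either direction; edgeR quasi-likelihood, Benjamini-Hochberg adjusted p below 0.05). The 1688 genes that rose became fewer by over 1.5 times without treated replicate 1 or treated replicate 3, and without treated replicate 3 they were 1010. The median log2 fold change of the members was 0.35, against 0.00 over all genes. The members were chosen with earlier results of these data known. Their shares beside those of all genes, here and in the comparisons below, are thus a description and not a test of the set.

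FN1, the ligand, had 118, 123 and 120 CPM in the hormone-treated wild type libraries, against 77.9, 79.1 and 61.5 CPM in the untreated ones. The groups did not overlap, and the lowest value was that of the library that stood apart. The log2 fold change was 0.73 ± 0.11 (SE, adjusted p = 0.000233, edgeR). ITGAV, the alpha partner of beta5, beta6 and beta8, had 123, 122 and 124 CPM in treated libraries, against 86.1, 95.8 and 68.5 CPM in untreated ones. It rose by a log2 fold change of 0.56 ± 0.10 (adjusted p = 0.000872, edgeR), without overlap. ITGA5, which pairs only with beta1, had 29.4, 31.4 and 27.7 CPM with the hormone, against 21.0, 21.8 and 21.1 CPM without it. The untreated libraries lay within 1 CPM of each other, and the rise of 0.47 ± 0.11 on the log2 scale passed the test (adjusted p = 0.00634, edgeR).

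ITGB1, the beta subunit of the collagen, laminin and fibronectin receptors, had 328, 365 and 335 CPM in treated libraries, against 296, 275 and 236 CPM in untreated ones. It rose by 0.35 ± 0.08 on the log2 scale (adjusted p = 0.00645, edgeR). ITGB5, the beta subunit of the vitronectin receptor, had 121, 108 and 125 CPM with the hormone, against 91.4, 107 and 69.6 CPM without it, so that the groups nearly met. Its rise of 0.40 ± 0.13 (adjusted p = 0.0358, edgeR) was lost when single wild type libraries were left out: adjusted p = 0.0784 without untreated replicate 1, 0.0796 without untreated replicate 3, 0.0961 without treated replicate 1 and 0.129 without treated replicate 3. Its log2 fold change was then 0.43, 0.25, 0.38 and 0.36. Untreated replicate 3 had the lowest value of its group for FN1, ITGAV, ITGB1 and ITGB5. Without it the log2 fold changes were 0.63 for FN1, 0.44 for ITGAV, 0.27 for ITGB1 and 0.47 for ITGA5, and all 4 still passed the test (edgeR adjusted p = 0.000111, 0.00021, 0.00838 and 0.00781).

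The other subunits did not pass in wild type cells. ITGB6 had 75.5, 99.3 and 54.1 CPM in treated libraries, against 131, 97.8 and 118 CPM in untreated ones, a wide spread, with treated replicate 2 inside the untreated range. Its log2 fold change was -0.60 ± 0.22 (adjusted p = 0.0771, edgeR). DESeq2 gave adjusted p = 0.0412, and edgeR without treated replicate 2, the highest of its group, gave -0.83 with adjusted p = 0.0135. ITGA2, the collagen subunit, had 225, 243 and 225 CPM in treated libraries, against 245, 264 and 287 CPM in untreated ones, a log2 fold change of -0.20 ± 0.07 (adjusted p = 0.0596, edgeR). It passed in DESeq2 (adjusted p = 0.0345) and in edgeR without untreated replicate 1 (adjusted p = 0.0351). ITGA3 (0.08 ± 0.09, adjusted p = 0.547) and ITGB8 (-0.09 ± 0.07, adjusted p = 0.431) did not pass either, and their groups overlapped.

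Markers of other cell types were looked at beside these rises. Of the 4 endothelial markers only CDH5 had a row in the table, at 7.58 to 8.19 CPM in treated wild type libraries and 2.62 to 5.95 CPM in untreated ones, and it passed the test (log2 fold change 0.82 ± 0.21, adjusted p = 0.00904, edgeR). Of the 5 leukocyte markers only CD68 had a row, at 13.5 to 15.1 CPM in treated and 7.10 to 12.4 CPM in untreated wild type libraries (0.58 ± 0.16, adjusted p = 0.0163, edgeR). The 3 of 8 fibroblast markers in the table summed to 3.91 to 13.1 CPM with the hormone and 4.20 to 20.6 CPM without it. Of these COL1A1 had 17.4 CPM in untreated replicate 3, the library that stood apart, against 1.81 and 1.74 CPM in untreated replicates 1 and 2. COL1A1 had 10, 2.42 and 2.25 CPM with the hormone. The 2 of 6 melanocyte markers summed to 6.68 to 9.36 CPM with it and 9.97 to 10.9 CPM without it. Of the keratinocyte markers DSP (0.98 ± 0.17) and PERP (0.30 ± 0.10) rose with the hormone in wild type cells, TP63 fell (-0.53 ± 0.11), and the rest did not pass. In knockout cells KRT14 (-0.87 ± 0.10), KRT6A (-0.68 ± 0.10) and KRT5 (-0.48 ± 0.12) fell, and the rest did not pass. The part of the cells of all these markers in the results was not tested.

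**Figure D2:**
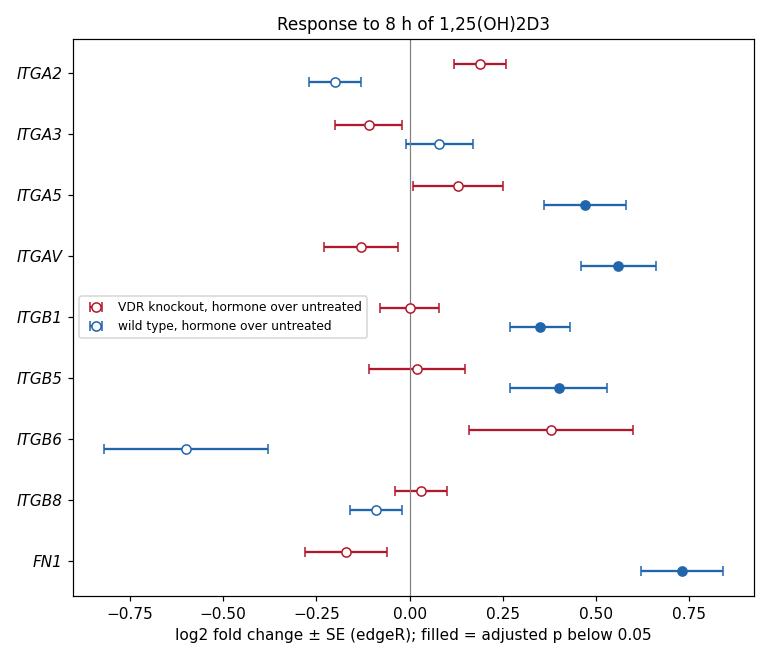
Log2 fold change of each member with 8 h of hormone over untreated cells (horizontal axis; bars, SE), in VDR knockout and wild type cells; filled points passed the test at an adjusted p below 0.05. In wild type cells FN1, ITGAV, ITGA5, ITGB5 and ITGB1 lie between 0.35 and 0.73, and in knockout cells the 9 members lie between -0.17 and 0.38 and none passed.

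The same treatment was then compared in the knockout cells. None of the 9 members was called by edgeR, with 1 at an unadjusted p below 0.05 (ITGA2), and DESeq2 and limma also called 0. Of all genes tested, 2.55% were called in either direction (0.913% higher and 1.64% lower). FN1 had 47.0, 56.2 and 48.5 CPM in treated knockout libraries, against 49.7, 65.2 and 55.3 CPM in untreated ones, a log2 fold change of -0.17 ± 0.11 (adjusted p = 0.393, edgeR). ITGAV had 79.2, 76.3 and 65.7 CPM with the hormone, against 78.4, 79.7 and 83.4 CPM without it (-0.13 ± 0.10, adjusted p = 0.489, edgeR). The groups overlapped for both genes.

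ITGB1 was at 132, 144 and 149 CPM in treated knockout libraries, against 146, 136 and 141 CPM in untreated ones, with a log2 fold change of 0.00 ± 0.08. ITGA5 was at 11.4, 10.6 and 11.6 CPM with the hormone, against 8.44, 12.2 and 10.1 CPM without it (0.13 ± 0.12). ITGB5 was at 57.5, 58.1 and 60.2 CPM with it, against 58.8, 64.9 and 50.1 CPM without it (0.02 ± 0.13). The group means of each of these 3 genes differed by less than the SD of the untreated libraries. ITGB6 was at 98.7, 99.4 and 91.6 CPM in treated knockout libraries, against 65.3, 63.4 and 93.1 CPM in untreated ones (0.38 ± 0.22, adjusted p = 0.352, edgeR). Untreated replicate 3 alone reached the treated range. ITGA2 was at 217, 230 and 205 CPM with the hormone, against 190, 187 and 195 CPM without it. These groups did not overlap, but the difference of 0.19 ± 0.07 did not pass (adjusted p = 0.158, edgeR). It passed without untreated wild type replicate 3, a library outside this pair of groups that enters the shared estimate of spread (adjusted p = 0.0419).

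The difference of the hormone responses, knockout minus wild type, was tested directly. It was negative for FN1, ITGAV and ITGB1 and positive for ITGA2 and ITGB6, so that 5 of 9 members were called, against 26.3% of all genes (13.8% higher and 12.5% lower). For FN1 it was -0.89 ± 0.15 on the log2 scale (adjusted p = 0.000671, edgeR) and for ITGAV -0.69 ± 0.14 (adjusted p = 0.00223, edgeR). For ITGA2 it was 0.39 ± 0.11 (adjusted p = 0.0126, edgeR), although neither response passed by itself. These 3 held in edgeR when any 1 library was left out. ITGB1 had a difference of -0.34 ± 0.12 (adjusted p = 0.0419, edgeR), which became adjusted p = 0.0514 to 0.112 without treated wild type replicate 2 or 3, any 1 untreated knockout library, or treated knockout replicate 1 or 2. ITGB6 had the largest positive difference, 0.99 ± 0.31 (adjusted p = 0.0449, edgeR). That call was lost without untreated wild type replicate 1 or 3, treated wild type replicate 1, untreated knockout replicate 1 or 2 or any 1 treated knockout library, with adjusted p = 0.0661 to 0.103 and differences of 0.87 to 1.02. For ITGA5 (-0.34 ± 0.17, adjusted p = 0.145), ITGB5 (-0.38 ± 0.18, adjusted p = 0.142), ITGA3 (-0.19 ± 0.12, adjusted p = 0.275) and ITGB8 (0.12 ± 0.11, adjusted p = 0.429) a difference of responses was not detected. ITGB5 passed without untreated wild type replicate 2 (-0.53, adjusted p = 0.0184, edgeR) and ITGA5 without untreated knockout replicate 1 (-0.46, adjusted p = 0.0494, edgeR). Other single libraries made both smaller: ITGB5 was -0.24 without untreated wild type replicate 3 (adjusted p = 0.21, edgeR) and ITGA5 -0.20 without untreated knockout replicate 2 (adjusted p = 0.354, edgeR).

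Knockout and wild type cells were compared without the hormone and with it. The groups compared share no library, but both tests use the estimate of spread from all 12 libraries, so they are not fully independent. Most members were lower in knockout cells. Without the hormone 7 of 9 were lower and 1 higher, but most of the transcriptome differed between the genotypes as well, with 34.2% of all genes lower and 35.5% higher (69.7% in either direction). With the hormone 6 were lower and 1 higher, against 37.4% and 38.4% of all genes (75.9% in either direction). The median log2 fold change of the members was -0.63 untreated and -1.01 with the hormone, against 0.01 and 0.02 over all genes. Summed keratinocyte markers were also lower, at 990 to 1020 CPM in untreated knockout libraries and 2400 to 2990 CPM in untreated wild type ones, and at 806 to 875 CPM in treated knockout and 2300 to 2530 CPM in treated wild type libraries. Each marker was called lower in both comparisons except PERP untreated (-0.14 ± 0.10, adjusted p = 0.198, edgeR) and TP63 with the hormone (-0.15 ± 0.11, adjusted p = 0.214, edgeR).

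Markers of other cell types also differed between the genotypes. The melanocyte markers PMEL and MITF summed to 15.1 to 18.7 CPM in untreated knockout and 9.97 to 10.9 CPM in untreated wild type libraries, and to 19.5 to 21.5 CPM in treated knockout and 6.68 to 9.36 CPM in treated wild type libraries. Of the pair MITF was called (log2 fold change 0.77 ± 0.13 untreated and 1.43 ± 0.13 with the hormone). The fibroblast markers summed to 4.19 to 4.62 CPM in untreated knockout and 4.20 to 20.6 CPM in untreated wild type libraries, and to 1.96 to 6.42 CPM in treated knockout and 3.91 to 13.1 CPM in treated wild type libraries. The 20.6 CPM includes 17.4 CPM of COL1A1 in untreated wild type replicate 3. Among the fibroblast markers LUM was lower in the knockout (-2.15 ± 0.44 untreated and -3.50 ± 0.52 with the hormone). Its counts were very low, at 4 to 9 in untreated and 1 to 3 in treated knockout libraries. Wild type libraries had 11 to 31 untreated and 18 to 35 with the hormone. COL1A1 was not called in either comparison (edgeR adjusted p = 0.409 untreated and 0.734 with the hormone). CD68 was lower in the knockout (-1.02 ± 0.18 and -1.85 ± 0.18), and CDH5 was 2.01-fold lower with the hormone. The part of these markers' cells in the members' differences was not tested.

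ITGA3, the laminin-332 subunit, differed most. It had 98.4, 103 and 125 CPM in untreated knockout libraries, against 327, 339 and 337 CPM in untreated wild type libraries. With the hormone it had 108, 97.7 and 96.2 CPM in knockout libraries, against 366, 329 and 364 CPM in wild type ones. The genotypes were far apart under both conditions, by log2 fold changes of -1.62 ± 0.09 (adjusted p = 1.44e-10, edgeR) and -1.81 ± 0.09 (adjusted p = 3.04e-11, edgeR). ITGB1 was lower in knockout cells at a log2 fold change of -0.93 ± 0.09 untreated (adjusted p = 5.01e-08, edgeR) and -1.28 ± 0.09 with the hormone (adjusted p = 8.59e-10, edgeR). ITGA5 was lower at a log2 fold change of -1.06 ± 0.12 untreated (adjusted p = 5.65e-07, edgeR) and -1.40 ± 0.12 with the hormone (adjusted p = 1.2e-08, edgeR). ITGB5 was lower at a log2 fold change of -0.63 ± 0.13 untreated (adjusted p = 0.000637, edgeR) and -1.01 ± 0.13 with the hormone (adjusted p = 5.94e-06, edgeR). For these 4 genes no knockout library reached the wild type range under either condition. The share of all genes that separate in this way was not counted, and 69.7% untreated and 75.9% with the hormone were called.

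FN1 and ITGAV differed between genotypes mainly with the hormone. FN1 in untreated cells was lower in the knockout at a log2 fold change of -0.36 ± 0.11 (adjusted p = 0.00669, edgeR), with overlap between the groups, and did not pass with library size alone as the scaling (adjusted p = 0.0555) or in limma (adjusted p = 0.057). With the hormone FN1 was lower at a log2 fold change of -1.25 ± 0.11 (adjusted p = 1.79e-08, edgeR). ITGAV averaged 80.5 ± 2.62 CPM in untreated knockout cells and 83.4 ± 13.9 CPM in untreated wild type cells (SD, n = 3 each), and did not pass (-0.05 ± 0.10, adjusted p = 0.66, edgeR). It passed without untreated wild type replicate 3 (-0.18, adjusted p = 0.0345, edgeR), and its sign turned without replicate 2 (0.06) and with library size alone (0.07). With the hormone ITGAV averaged 73.8 ± 7.11 CPM in knockout cells and 123 ± 1.29 CPM in wild type cells, a log2 fold change of -0.74 ± 0.10 (adjusted p = 3.38e-06, edgeR).

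ITGA2 and ITGB6 showed the opposite order of the conditions, with a lower level in the knockout only called without the hormone. ITGA2 was lower in untreated knockout cells at a log2 fold change of -0.48 ± 0.07 (adjusted p = 2.4e-05, edgeR) and did not pass with the hormone (-0.09 ± 0.07, adjusted p = 0.286, edgeR), where its sign turned to 0.02 with library size alone. ITGB6 was lower in untreated knockout cells at a log2 fold change of -0.65 ± 0.22 (adjusted p = 0.0252, edgeR). That call was lost without untreated wild type replicate 1 or 3 or untreated knockout replicate 1 or 2, with adjusted p = 0.0684 to 0.0829, and with library size alone (-0.52, adjusted p = 0.0549). With the hormone ITGB6 did not pass (0.34 ± 0.22, adjusted p = 0.188, edgeR) but was higher in knockout cells without treated wild type replicate 2 (0.56, adjusted p = 0.0201, edgeR). The tests of the difference of responses given above are also the tests of whether the genotype difference changed with the hormone.

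ITGB8 was the one member called higher in the knockout. It had 104, 101 and 106 CPM in untreated knockout libraries, against 83.4, 88.1 and 88.6 CPM in untreated wild type libraries (log2 fold change 0.26 ± 0.07, adjusted p = 0.00497, edgeR). With the hormone it had 114, 110 and 94.7 CPM in knockout libraries, against 84.6, 77.6 and 82.7 CPM in wild type ones (0.38 ± 0.07, adjusted p = 0.000185, edgeR). The groups did not overlap under either condition.

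**Figure D3:**
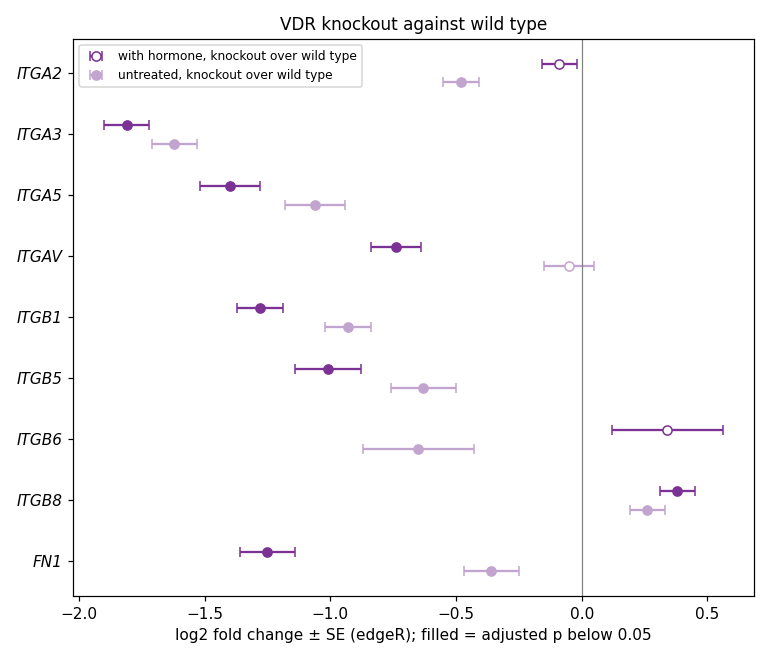
Log2 fold change of each member in VDR knockout over wild type cells (horizontal axis; bars, SE), with the hormone and untreated; filled points passed the test at an adjusted p below 0.05. ITGA3 lies lowest, at -1.81 with the hormone and -1.62 untreated, and ITGB8 is the only member with filled points above 0.

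Because beta subunits compete for alpha v, and alpha subunits for beta1, ratios of their CPM within a library were taken as a description, with no test. They are not corrected for gene length and compare libraries, not the amounts of the paired genes. The ratio of ITGB6 to ITGB5 was 1.65 ± 0.113 in treated and 1.32 ± 0.476 in untreated knockout cells, and 0.66 ± 0.248 in treated and 1.35 ± 0.402 in untreated wild type cells (SD, n = 3 each). Treated wild type libraries ranged from 0.431 to 0.923, which met the untreated range of 0.911 to 1.70 only at its lowest library. The ratio of ITGB8 to ITGB5 was 1.57 to 1.98 in treated and 1.56 to 2.12 in untreated knockout libraries, and 0.659 to 0.722 in treated and 0.821 to 1.27 in untreated wild type libraries. The ratio of ITGA3 to ITGA2 was 0.425 to 0.499 and 0.518 to 0.64 in treated and untreated knockout libraries, and 1.35 to 1.63 and 1.17 to 1.33 in treated and untreated wild type libraries. The ratio of ITGA5 to ITGA2 was 0.046 to 0.0563 in treated and 0.0445 to 0.0653 in untreated knockout libraries. It was 0.123 to 0.131 in treated wild type libraries, against 0.0736 to 0.0859 in untreated ones. The CPM of all 8 subunits summed to 806 ± 28.2 in treated and 767 ± 32.0 in untreated knockout cells, and to 1360 ± 20.8 in treated and 1270 ± 32.1 in untreated wild type cells.

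**Figure D4:**
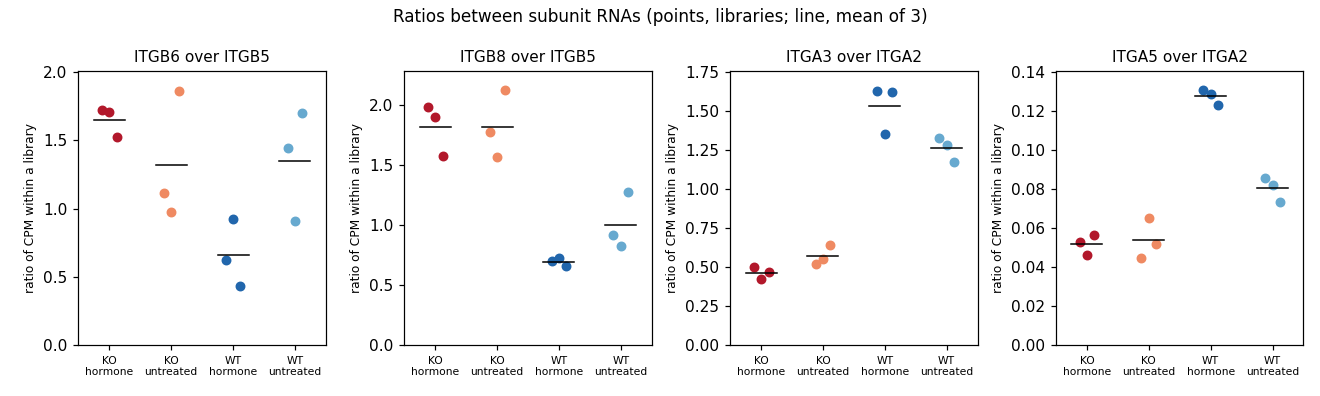
Ratio of the CPM of 2 subunits within each library (points; vertical axes from 0; lines, means of 3), for knockout (KO) and wild type (WT) cells with the hormone or untreated. ITGB6 over ITGB5 is 0.431 to 0.923 in hormone-treated WT libraries, and ITGA3 over ITGA2 is lower in every KO library than in any WT library.

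Other integrin subunits were taken from a list of 18, of which 7 were in the table and were tested. This list and those of ligands and adhesion genes below were also chosen with earlier results of these data known. Their shares in all comparisons are thus a description only. With the hormone edgeR called 0 of them in knockout cells and 0 in wild type cells, against 2.55% and 24.5% of all genes. ITGA6 and ITGB4, which form the laminin receptor of hemidesmosomes, were far lower in the knockout. ITGA6 averaged 238 ± 28.7 CPM in untreated knockout cells and 787 ± 193 CPM in untreated wild type cells (SD, n = 3 each), and its log2 fold change was -1.72 ± 0.15 untreated (adjusted p = 2.24e-07, edgeR) and -2.08 ± 0.15 with the hormone (adjusted p = 2.46e-08, edgeR). ITGB4 averaged 250 ± 18.7 CPM in untreated knockout and 954 ± 95.6 CPM in untreated wild type cells, with log2 fold changes of -1.93 ± 0.09 (adjusted p = 1.62e-11, edgeR) and -1.97 ± 0.09 (adjusted p = 8e-12, edgeR). Without the hormone 3 of the 7 were higher and 3 lower in the knockout, shares of 42.9% each that stand near the 35.5% and 34.2% of all genes. ITGAE, the alpha E subunit known for binding E-cadherin, was higher (0.43 ± 0.08), and ITGA4 was lower (-1.62 ± 0.37) at under 4 CPM in every library. With the hormone 3 were higher and 3 lower, again 42.9% each, beside 38.4% and 37.4% of all genes. Among those higher was ITGA1 (1.07 ± 0.20), another collagen-binding subunit, at 5.05 to 7.45 CPM in knockout and 2.58 to 3.08 CPM in wild type libraries.

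Of 32 listed matrix ligands of integrins 25 were tested. With the hormone in wild type cells 5 rose and 2 fell, shares of 20% and 8% against 11.5% and 13.0% of all genes, and the median log2 fold change was 0.13. Tenascin C (TNC), a ligand of alpha v beta6, had 46.4, 47.1 and 44.2 CPM in treated libraries, against 31.4, 31.1 and 24.9 CPM in untreated ones (log2 fold change 0.66 ± 0.10, adjusted p = 0.000265, edgeR). FBLN1, which encodes the matrix protein fibulin-1 (0.64 ± 0.11), LAMC1, the gamma1 chain of laminins (0.45 ± 0.09), and AGRN, the proteoglycan agrin (0.50 ± 0.10), also rose. The number that fell was 1 without untreated replicate 1 or 2 and 0 without treated replicate 1 or 3, and 8 rose without untreated replicate 2. In knockout cells CYR61, a matrix protein that binds alpha v integrins, fell (-0.75 ± 0.13, adjusted p = 0.00815, edgeR), and no other ligand was called. This share of 4% stands beside 1.64% of all genes that fell. CYR61 also fell in wild type cells (-0.43 ± 0.12, adjusted p = 0.0148, edgeR), and its difference of responses did not pass (-0.33 ± 0.17, adjusted p = 0.173, edgeR). The number that fell in knockout cells was 0 without untreated knockout replicate 1 or treated knockout replicate 2. Without untreated wild type replicate 3 a ligand rose there as well. The difference of responses was higher for 2 and lower for 4, with FBLN1 (-0.75 ± 0.16), AGRN (-0.57 ± 0.14), TNC (-0.53 ± 0.14) and LAMC1 (-0.47 ± 0.13) lower. These shares of 8% and 16% stand beside 13.8% and 12.5% of all genes. The number higher became 0 or 1 without untreated wild type replicate 1, any 1 treated wild type library, untreated knockout replicate 1 or treated knockout replicate 2.

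Between the genotypes 19 of the 25 ligands were lower in the knockout and 1 was higher, both untreated and with the hormone, shares of 76% and 4%. Of all genes 34.2% were lower and 35.5% higher untreated, and 37.4% and 38.4% with the hormone. With library size alone and in limma, 2 ligands were higher in each comparison. LAMB3, which encodes a chain of laminin-332, the ligand of alpha3 beta1, was lower at a log2 fold change of -1.40 ± 0.07 and COL7A1, the collagen of anchoring fibrils, at a log2 fold change of -2.11 ± 0.10 in untreated cells. With the hormone these differences were -1.68 ± 0.07 for LAMB3, -2.28 ± 0.11 for COL7A1, and AGRN was lower at -1.94 ± 0.10. TGFB1, whose latent product binds alpha v beta6 and alpha v beta8, was lower at a log2 fold change of -1.76 ± 0.10 in untreated knockout cells.

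The third list held 35 genes of the adhesion complex at the inner face of integrins and its signalling, 32 of them tested. With the hormone in wild type cells 2 rose and 5 fell, shares of 6.25% and 15.6% that stand near the 11.5% and 13.0% of all genes, with a median log2 fold change of -0.01. TNS4, a tensin-like protein that binds the beta1 tail, fell to 245, 249 and 234 CPM in treated libraries, against 443, 438 and 471 CPM in untreated ones (-0.89 ± 0.07, adjusted p = 5.13e-07, edgeR). TNS3, a full-length tensin (-0.30 ± 0.07), and ARHGEF7, an exchange factor of small GTPases (-0.29 ± 0.07), fell, while FBLIM1, which encodes the adaptor migfilin, rose (0.66 ± 0.12). The number that rose was 4 with library size alone, in limma, and without untreated replicate 1 or 2, and 1 without treated replicate 3, and 3 fell without treated replicate 2 or 3. In knockout cells edgeR called 0 of the 32, against 2.55% of all genes, and 2 rose and 3 fell without untreated wild type replicate 3. The difference of responses was higher for 6, among them TNS4 (0.76 ± 0.09), TNS3 (0.52 ± 0.10) and ARHGEF7 (0.44 ± 0.09), and lower for 5, among them FBLIM1 (-0.82 ± 0.17). These shares of 18.8% and 15.6% stand near the 13.8% and 12.5% of all genes. The number lower was 8 without untreated wild type replicate 1, 3 without treated wild type replicate 1 or 3, untreated knockout replicate 1 or treated knockout replicate 1, and 2 without treated knockout replicate 3.

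In untreated knockout cells 24 of the 32 adhesion genes were lower and 3 higher than in wild type cells, and 24 were lower and 6 higher with the hormone. The shares lower were 75% in both, against 34.2% and 37.4% of all genes, and the shares higher were 9.38% and 18.8%, against 35.5% and 38.4%. At a minimum of 1.5-fold the number higher was 1 in each. Those with the smallest adjusted p untreated were TNS4 (-1.50 ± 0.07), TGFB1I1, which encodes the paxillin relative Hic-5 (-1.78 ± 0.11), TLN2, a talin (-1.79 ± 0.12), and ACTN4, an alpha-actinin (-0.96 ± 0.07). With the hormone they were TGFB1I1 (-2.17 ± 0.11), CSK, a kinase that holds Src inactive (-2.10 ± 0.12), LIMS1 (1.12 ± 0.07) and ACTN4 (-1.04 ± 0.07). LIMS1, the partner of the integrin-linked kinase known as PINCH1, had 144, 139 and 124 CPM in treated knockout libraries, against 65.4, 59.9 and 62.6 CPM in treated wild type libraries.

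The authors' deposited tables of gene ontology terms for genes higher in the knockout, untreated or with the hormone, named 0 members, so ITGB8 is not in them. In the authors' deposited table for genes higher with the hormone in wild type cells, extracellular matrix organization (42 of 850 listed genes, adjusted p = 1.66e-06) held ITGA5, ITGAV, ITGB1, ITGB5 and FN1. Integrin binding in the authors' deposited table (14 of 862, adjusted p = 0.0431) held ITGA5, ITGAV, ITGB1 and FN1, and fibronectin binding (6 of 862, adjusted p = 0.0437) held ITGAV and ITGB1. In the authors' deposited table for genes lower in untreated knockout cells, cell-substrate adhesion (101 of 3405, adjusted p = 0.00158) held ITGA2, ITGA3, ITGA5, ITGB1, ITGB5, ITGB6 and FN1. Cell-substrate junction there (174 of 3548, adjusted p = 3.36e-12, the authors' deposited table) held all of these but FN1. In the authors' deposited table for genes lower in knockout cells with the hormone, focal adhesion (192 of 4616, adjusted p = 1.27e-07) held ITGA3, ITGA5, ITGAV, ITGB1 and ITGB5. Integrin binding in the authors' deposited table for that comparison (42 of 4456, adjusted p = 0.0511) and regulation of cell-substrate adhesion (76 of 4413, adjusted p = 0.0573) did not pass 0.05. The authors' deposited table for genes lower with the hormone in knockout cells named 0 of the members. These tables were made from the same libraries and are not independent of the tests above.

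The genes most like each member were those with the highest Pearson correlation of log2 CPM over the 12 libraries, given as a description, since the libraries fall into 2 genotypes. The closest to FN1 were PDIA3 (r = 0.991), a disulfide isomerase of the endoplasmic reticulum, and RNF44 (0.987). For ITGAV they were CREG1 (0.981) and TAPBP (0.974), for ITGA5 SPATA2L (0.993) and VARS (0.992), for ITGB1 POLD1 (0.995) and SUPT5H (0.993), and for ITGB5 DENND4B (0.991) and FAM57A (0.989). For ITGA3 they were METRN (0.996) and AMPD3 (0.995), for ITGA2 KDM4C (0.98) and GTDC1 (0.977), and for ITGB8 MZT1 (0.969) and a transcript known only by its clone name (0.968). ITGB6 had the least company, with TTC12 (0.922) and STX8 (0.919). Above r = 0.95, ITGA3 had 1478 genes, ITGB1 1388, FN1 154, ITGAV 13 and ITGB6 0. Among the members FN1 was closest to ITGB5 (0.932) and ITGAV (0.925), and ITGB8 ran opposite to ITGB1 (-0.945).

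On GRCh38 in GENCODE v29, FN1 lies on chromosome 2 from 215436172 down to 215360440, ITGB6 on chromosome 2 from 160200313 down to 160099666, and ITGAV on chromosome 2 from 186590065 to 186680901. ITGA2 lies on chromosome 5 (52989326 to 53094779), ITGA3 on chromosome 17 (50055968 to 50090481) and ITGA5 on chromosome 12 (54395261 to 54419460, minus strand). ITGB1 lies on chromosome 10 (32900319 to 33005792, minus strand), ITGB5 on chromosome 3 (124761948 to 124901418, minus strand) and ITGB8 on chromosome 7 (20330702 to 20415754). All are protein-coding genes, and counts cover whole genes, so exons spliced in or out of FN1 or ITGB6 were not resolved. No member shared its 12 counts with a second gene row. A counted antisense gene overlapped ITGB1 (RP11-462L8.1, 106 to 204 counts per library, at most 9.44% of those of ITGB1) and another overlapped ITGB8 (CTA-293F17.1, 29 to 101 counts, at most 6.1%). The sources used here do not say whether counting used strand, so reads of these pairs may be mixed.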

How the data were processed

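Of the deposited files, the authors' table of raw counts per gene was tested, and their table of CPM, which equals each count per 1000000 counts of its library to within 0.005, was used in limma only. Deposited gene ontology tables hold each term's p-value, raw and adjusted, per the file headers, and 7 were read for the members. BWA 0.5.9 and mm9 are named in the submitters' processing notes. Since mm9 is a mouse build and the IDs are of human genes, the build, annotation and counting tool remain unknown here.

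In R 4.3.3, edgeR 4.0.16 (TMM factors 0.95 to 1.057, filterByExpr, robust quasi-likelihood F test, all 12 libraries, 8 residual degrees of freedom) tested 14676 of 16271 genes in 5 comparisons, called at a Benjamini-Hochberg adjusted p below 0.05. SE is the log2 fold change over the square root of F. CPM printed for single genes are TMM-scaled, and values after ± beside CPM are SD. Gene lengths and positions come from GENCODE v29, promoters from RefSeq (GRCh38.p14).

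All members are named in every comparison, from each list up to 4 called genes with the smallest adjusted p, and for each member its 2 most correlated genes. One gene that this rule names is not reported here. VDR, CYP24A1 and cell type markers are named as checks. Members and lists were chosen with earlier results of these data known. Alternatives were other scalings, filters, thresholds and tools (DESeq2 1.42.0, limma 3.58.1 on log2 CPM + 1), the compared groups alone, a replicate block and each library left out.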

Additional observations from a re-analysis of the deposited data

Results flagged for a closer look

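The hormone responses of 5 members differed between the genotypes by the test of the difference itself (knockout response minus wild type response, log2 scale, edgeR quasi-likelihood). The difference was -0.89 for FN1 (adjusted p = 0.000671), -0.69 for ITGAV (adjusted p = 0.00223), -0.34 for ITGB1 (adjusted p = 0.0419), 0.39 for ITGA2 (adjusted p = 0.0126) and 0.99 for ITGB6 (adjusted p = 0.0449). For FN1, ITGAV and ITGB1 the wild type response passed by itself and the knockout response did not. For ITGA2 and ITGB6 neither did. The calls for ITGB1 and ITGB6 each depended on several single libraries. With groups of 3, no test for a single outlying library was made.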

How the results depend on the processing

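The 5 rises in wild type cells and the 6 members lower in the knockout with the hormone kept their direction under every alternative that was refitted and with each of the 12 libraries left out. Of the 10 alternatives, an adjusted p below 0.01 and a minimum of 1.5-fold reuse the main fold changes, so direction could not change there. With 1 library left out, members called with the hormone in wild type cells numbered 4 to 5 higher and 0 to 1 lower, in knockout cells 0 to 1 higher, in the knockout with the hormone 1 to 2 higher, and for the difference of responses 1 to 2 higher. DESeq2 called 2 lower with the hormone in wild type cells. At a minimum of 1.5-fold, 1 member rose with the hormone in wild type cells, 0 were higher in the knockout untreated, 0 with the hormone, and 1 had a higher difference of responses. The members with a higher difference numbered 1 without the filter on low counts and 0 at an adjusted p below 0.01. With the compared groups alone ITGB5 did not pass in wild type cells (adjusted p = 0.0794).

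Some values of differences that did not pass changed sign: with library size alone ITGAV untreated (0.07) and ITGA2 with the hormone (0.02) between genotypes, in limma the same 2 (0.08 and 0.02), ITGAV untreated without untreated wild type replicate 2 (0.06), and with the hormone in the knockout ITGB5 without untreated knockout replicate 3 (-0.08, and up to 0.11 without others) and ITGB8 without treated knockout replicate 1 (-0.02, and up to 0.11). ITGB1 there, at 0.00, lay between -0.03 and 0.05 with 1 library left out. Library size alone moved the median of all genes to 0.13 in both genotype comparisons, and limma on the deposited CPM to 0.12. The causes were not tested.

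Libraries of the same replicate number did not deviate together (correlations of -0.18 to 0.12). With the replicate number as a block the members with a higher difference of responses numbered 1, ITGB1 and ITGB6 losing their call there (adjusted p = 0.0602 and 0.0874), as did ITGB6 in the untreated knockout (adjusted p = 0.0527). Over all genes, 374 were called with the hormone in the knockout, and 9 to 2365 with 1 library left out, so counts in that comparison rest on single libraries. In wild type cells 3602 were called, 2112 to 3795 with 1 library left out and 705 at 1.5-fold.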
